A study of Homo sapiens with 32 samples.

Results

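Kasumi-1 cells exposed to KDM1A inhibitors for 72 h were described by RNA sequencing in 8 of the 32 libraries of the series. The 8 are those whose titles name Kasumi-1 and 72 h. Kasumi-1 is a human acute myeloid leukaemia line with the t(8;21) translocation, which fuses RUNX1 to RUNX1T1. Cells were kept in RPMI medium plus 20% fetal calf serum, and each culture received 1 of 4 agents. DMSO at 0.1% was the vehicle, RN-1 is labelled an irreversible and GSK690 a reversible KDM1A inhibitor, and GSK690* is labelled the inactive isomer of GSK690. RN-1, GSK690 and GSK690* were each given at 1 µM. Each agent had 2 libraries, labelled biological replicates. The 4 libraries with RN-1 or GSK690 are called inhibitor libraries here, and the 4 with DMSO or GSK690* control libraries. The line, the serum and the translocation are shared by both sides of the comparison. Nothing in the labels says that replicates came from separate thaws of the line. The p-values measure only the spread between replicate libraries. That spread was pooled over the 16 sets of line, time and agent in the series, not taken from the 8 libraries alone. Of the 23073 genes in the table, 11074 had at least 1 FPKM in at least 2 of the 8 libraries and entered the comparison. FPKM counts fragments per kilobase of transcript, scaled to the mapped fragments of a library, so levels can be compared between genes per length. Kasumi-1 at 24 h and SKNO-1 at 72 h, with the same 4 agents and 8 libraries each, are described for comparison only. All 32 libraries of the series entered 1 fit, so the other sets also helped to set the spread used in each test. SKNO-1 is another t(8;21) line, grown in 10% serum with 10 ng/mL GM-CSF, and its treatment protocol names 4 days where its time label says 72 h.

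KDM1A (LSD1) is a flavin-dependent enzyme that removes methyl groups from lysine 4 of histone H3 at enhancers and promoters. It works in a complex with the corepressor RCOR1 (CoREST) and the deacetylases HDAC1 and HDAC2, and the transcription factors GFI1 and GFI1B bring this complex to DNA through their SNAG domains. In myeloid progenitors the GFI1-KDM1A complex is known for holding down genes of monocyte and macrophage differentiation, and inhibitors of the enzyme are known to induce myeloid surface markers in leukaemia cells.

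The deposited FPKM values summed to between 353890 and 388365 per library, and 10611 to 10898 genes reached 1 FPKM. Read counts were not used here, so sequencing depth and counting error per gene are unknown. Between 1 and 8 values per library were missing, over 15 genes. The libraries correlated with Kasumi-1 libraries of 24 h at a mean r of 0.969 to 0.979 and with SKNO-1 libraries of 24 h at 0.854 to 0.872, across genes. The RN-1 pair was the most discordant: 1122 genes differed by at least 0.5 on the log2 scale between its replicates, against 161 to 174 in the other pairs. Principal component analysis put the inhibitor libraries apart from the controls on the first component (59.9% of variance), and RN-1 replicate 1 apart from the other 7 on the second (19.6%). The difference between RN-1 replicate 1 and replicate 2 ran with transcript length (Spearman rho −0.53 across 10900 genes with a GENCODE v29 transcript, which are not independent) and with GC content (0.54). In the other 3 pairs these values lay between −0.13 and 0.08 for length and between −0.34 and 0.06 for GC content. The part of this library in the results was not tested beyond leaving it out: 2882 genes then changed, 1366 higher and 1516 lower, against 3085 with it.

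The target and its complex were examined first. KDM1A itself was listed without a value in 5 of the 8 libraries, so the inhibitors could not be compared with the controls for it. The 3 values present were 75.1 FPKM with GSK690*, 71.3 with RN-1 and 68.3 with GSK690. Both compounds act on the protein, so the level of this transcript does not check the labels. GFI1, which recruits the complex, was at 123 and 128 FPKM with DMSO, 138 and 154 with GSK690*, 189 and 211 with RN-1 and 213 and 230.1 with GSK690. Every inhibitor library lay above every control, and GFI1 rose (log2 change 0.63 ± 0.07, limma adjusted p = 2.95e-07, where ± is the SE). ZNF217, a zinc finger protein that binds the same complex, also rose, from a control mean of 14.2 ± 0.665 to 19.1 ± 2.79 FPKM (mean ± SD, n = 4 control and 4 inhibitor libraries, as in all such pairs of means below). The other 14 tested members of the 16 in the complex list did not pass the test. RCOR1 had control and inhibitor means of 21.4 ± 0.914 and 19.97 ± 2.14 FPKM, with a log2 change of -0.10 ± 0.08. GFI1B was at or below 0.401 FPKM in all 8 libraries and did not pass the filter. Of 19 other histone demethylases tested, JHDM1D rose, KDM2B fell and 17 did not pass, and 3 rose with quantile or median-of-ratios scaling or without GSK690 replicate 2.

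Across genes, 1537 rose and 1548 fell with the inhibitors (13.9% and 14% of 11071 genes fitted; limma on log2(FPKM + 1), Benjamini-Hochberg adjusted p under 0.05). Most changes were small. The median log2 change was 0.46 among the genes that rose and −0.32 among those that fell, and −0.03 over all genes. Fitted changes of at least 2-fold were unequal in direction, with 173 genes higher and 13 lower. The 4 inhibitor libraries lay wholly above the 4 controls in 1735 genes (15.7% of 11059 with 8 values) and wholly below in 1521 (13.8%). Of the 173 genes that rose at least 2-fold, 171 were without overlap and 66 had a control mean under 1 FPKM. Over all genes, 226 that rose had a control mean under 1 FPKM, and 41 that fell had an inhibitor mean under 1 FPKM. Genes under 1 FPKM in all 4 controls passed the filter only through inhibitor libraries, so the filter favoured a rise in them. Counts and medians of gene lists that hold such members lean upward. Genes under 1 FPKM in all 4 controls include PI16, LY96, RGMB, MS4A4A, MPZL1, CD86, TLR1, LY86, ITGAM and FCGR2B. IL21R, GBP2, GZMA, ACVR1, ID3 and LTB are also among such genes. The near-equal split depended on single libraries, mostly through the genes that fell. Without DMSO replicate 1, 1264 genes rose and 779 fell. The count that fell was 997 without GSK690* replicate 1 and 993 without GSK690 replicate 2, and leaving out any other library gave 1281 to 1471 that rose and 1141 to 1559 that fell. The median level of those 173 genes went from 2.16 FPKM in controls to 7.21 FPKM with the inhibitors. The pseudocount of 1 makes the fitted change smaller than the ratio of means in genes of low level. In bulk RNA, a change in the share of cells that express a gene and a change in RNA per cell cannot be told apart.

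**Figure D1:**
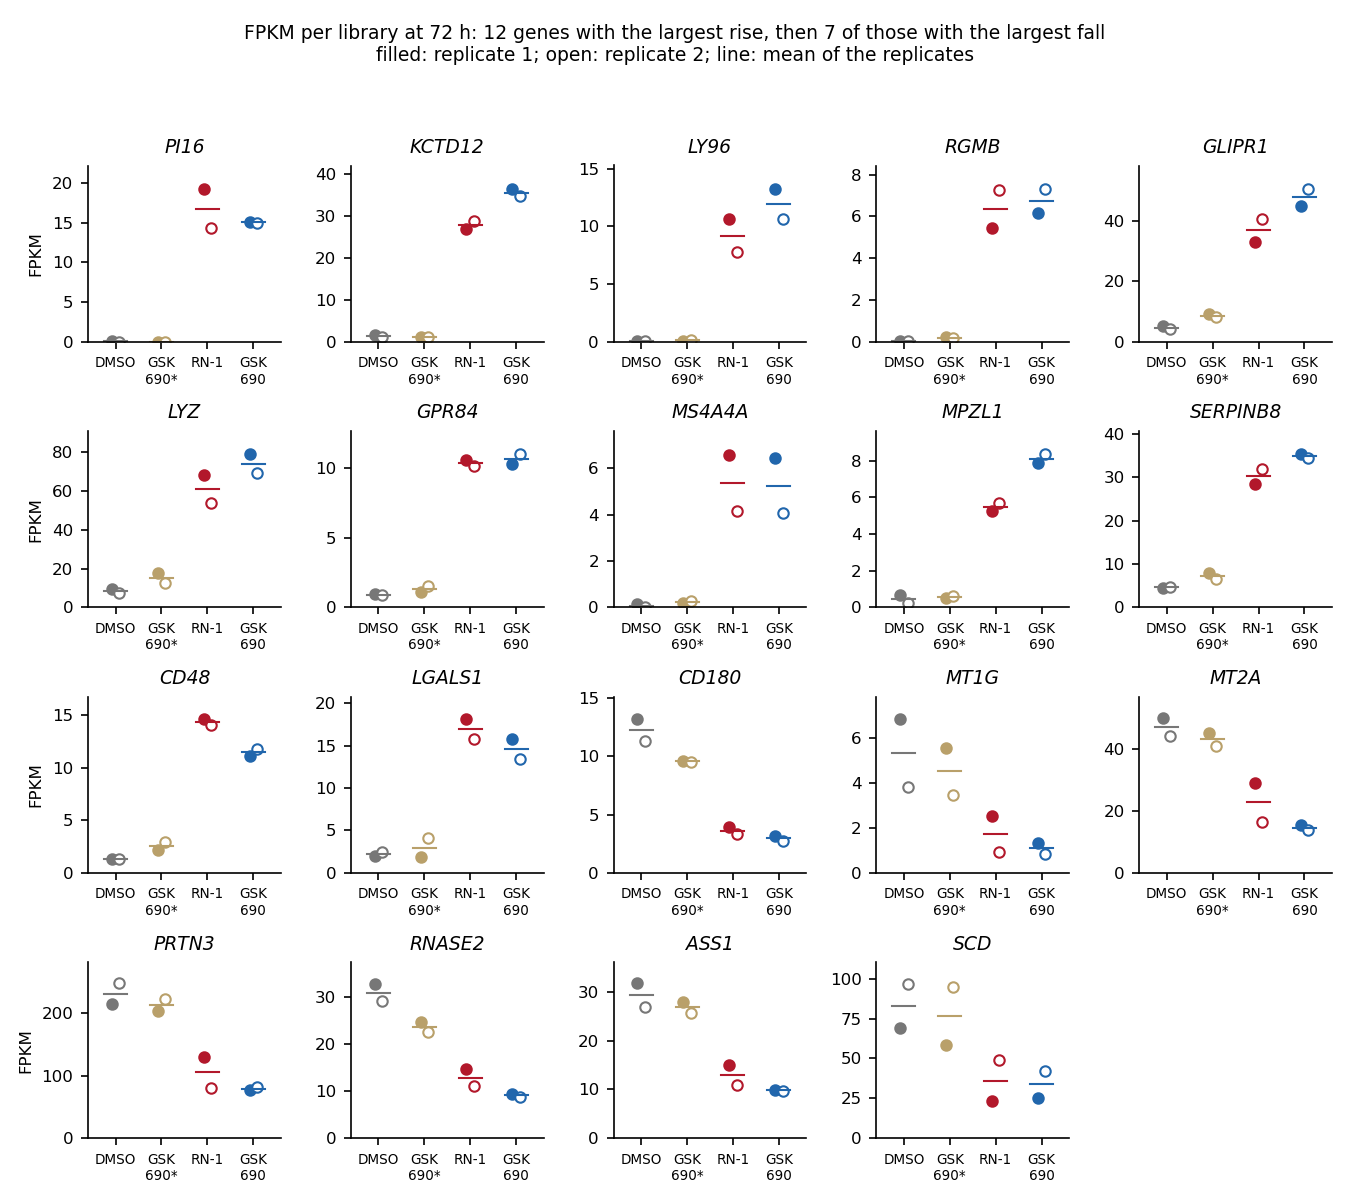
Level in FPKM (linear axes from 0) of the 12 genes with the largest rise and 7 of those with the largest fall, 1 panel per gene. Points are libraries (filled replicate 1, open replicate 2) and the line is the mean of the replicates of an agent. In PI16 the inhibitor libraries stand between 14.3 and 19.2 FPKM above controls near 0, and in CD180 the 4 inhibitor libraries lie below the 4 controls.

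Most of the genes with the largest rise were low in controls. Of the genes below, PI16, LY96, RGMB, MS4A4A and MPZL1 were under 1 FPKM in all 4 controls. They passed the filter only through inhibitor libraries, so the filter favoured a rise in them. PI16 (peptidase inhibitor 16, chr6:36922209-36932613 in hg19) was at 0.115 and 0.0173 FPKM with DMSO, 0.0149 and 0 with GSK690*, 19.2 and 14.3 with RN-1 and 15.1 and 15 with GSK690. All 4 controls were close to 0 and all 4 inhibitor libraries were of one order, and the change was the largest of all genes fitted (log2 change 4.02 ± 0.12, limma adjusted p = 1.48e-16). KCTD12, an auxiliary subunit of GABA-B receptors (chr13:77454312-77460540), was at 1.58 and 1.17 FPKM with DMSO, 1.24 and 1.06 with GSK690*, 26.9 and 28.8 with RN-1 and 36.5 and 34.7 with GSK690. It was low but present in the controls, with a ratio of means of 25.1 (log2 change 3.85 ± 0.10, limma adjusted p = 1.46e-17). LY96 (MD-2), the lipopolysaccharide-binding partner of TLR4, was at 0.0358 and 0.0622 FPKM with DMSO, 0.076 and 0.159 with GSK690*, 10.7 and 7.75 with RN-1 and 13.2 and 10.7 with GSK690. The controls stayed near 0, and the RN-1 and GSK690 libraries met at 10.7 FPKM (log2 change 3.40 ± 0.14, limma adjusted p = 1.49e-13).

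RGMB, a glycosylphosphatidylinositol-anchored coreceptor for bone morphogenetic proteins (chr5:98104354-98134347), was at 0.0427 and 0.0374 FPKM with DMSO, 0.209 and 0.162 with GSK690*, 5.45 and 7.26 with RN-1 and 6.17 and 7.31 with GSK690. It rose from a near-zero level (log2 change 2.76 ± 0.13, limma adjusted p = 1.36e-12). GPR84, a G protein-coupled receptor that senses fatty acids of medium length (chr12:54756229-54758271), was at 0.952 and 0.885 FPKM with DMSO, 1.07 and 1.5 with GSK690*, 10.6 and 10.2 with RN-1 and 10.3 and 11 with GSK690. Its 4 inhibitor libraries were the closest to each other among these genes (log2 change 2.46 ± 0.12, limma adjusted p = 2.44e-12). MS4A4A, a tetraspan membrane protein of macrophages (chr11:60048014-60076445), was at 0.139 and 0 FPKM with DMSO, 0.167 and 0.265 with GSK690*, 6.59 and 4.17 with RN-1 and 6.46 and 4.06 with GSK690. Replicate 1 was above replicate 2 with both inhibitors, and all 4 were far above the controls (log2 change 2.44 ± 0.15, limma adjusted p = 8.21e-11). LYZ, the secreted bacteriolytic enzyme lysozyme, was already present in controls, at 9.48 and 7.23 FPKM with DMSO, 17.7 and 12.7 with GSK690*, 68.6 and 53.9 with RN-1 and 79.2 and 69.2 with GSK690. The GSK690* pair lay above the DMSO pair, and both lay under every inhibitor library (log2 change 2.48 ± 0.17, limma adjusted p = 4.99e-10).

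The remaining genes among the 12 with the largest rise had control means between 0.495 FPKM (MPZL1) and 6.6 FPKM (GLIPR1). GLIPR1, a secreted CAP-family protein, went from 6.6 ± 2.4 to 42.2 ± 7.46 FPKM. SERPINB8, an intracellular serine protease inhibitor, went from 5.91 ± 1.62 to 32.5 ± 3.1 FPKM. MPZL1, a cell-surface glycoprotein that binds the phosphatase SHP2, went from 0.495 ± 0.203 to 6.79 ± 1.53 FPKM. CD48, a glycosylphosphatidylinositol-anchored ligand of CD244, was at 1.35 and 1.36 FPKM with DMSO, 2.15 and 2.91 with GSK690*, 14.6 and 14.1 with RN-1 and 11.1 and 11.8 with GSK690, with both RN-1 libraries above both GSK690 libraries. LGALS1, the beta-galactoside-binding lectin galectin-1, went from 2.58 ± 1.04 to 15.8 ± 1.9 FPKM. These 5 genes were without overlap between inhibitor and control libraries, with log2 changes of 2.26 to 2.55.

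Promoters of genes that rose were read because GFI1, RUNX1 and ETS factors, which occupy promoters of myeloid genes in myeloid cells, have short recognition motifs. Each stretch below is RefSeq sequence of GRCh38.p14, from 250 bases before to 50 bases after the annotated gene start, 5′ to 3′ on the gene's strand, and 4 genes are shown for a contrast in motif content. Capitals mark 3 motifs searched on both strands: GAGGAA (ETS), AAATCA (the core of a GFI1 site) and TGTGGT (RUNX).
PI16 (chr6:36948046-36948345, plus strand): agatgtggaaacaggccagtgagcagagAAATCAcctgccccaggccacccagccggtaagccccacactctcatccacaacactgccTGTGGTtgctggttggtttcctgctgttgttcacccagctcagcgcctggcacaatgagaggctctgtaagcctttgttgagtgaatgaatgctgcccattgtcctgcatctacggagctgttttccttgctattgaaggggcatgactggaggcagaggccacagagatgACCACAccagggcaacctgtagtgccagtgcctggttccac
MS4A4A (chr11:60280416-60280715, plus strand): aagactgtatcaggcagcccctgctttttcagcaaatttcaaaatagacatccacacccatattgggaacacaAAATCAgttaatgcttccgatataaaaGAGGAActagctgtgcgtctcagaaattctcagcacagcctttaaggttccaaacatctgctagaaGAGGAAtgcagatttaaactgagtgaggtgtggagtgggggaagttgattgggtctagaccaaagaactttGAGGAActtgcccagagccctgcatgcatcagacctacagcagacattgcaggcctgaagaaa
CD86 (chr3:122055112-122055411, plus strand): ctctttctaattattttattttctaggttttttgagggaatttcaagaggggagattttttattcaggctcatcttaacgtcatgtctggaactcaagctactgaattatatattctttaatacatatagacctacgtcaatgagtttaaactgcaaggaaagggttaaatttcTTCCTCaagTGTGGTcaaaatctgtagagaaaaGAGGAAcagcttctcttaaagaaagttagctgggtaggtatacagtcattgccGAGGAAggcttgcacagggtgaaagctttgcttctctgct
ITGAM (chr16:31259725-31260024, plus strand): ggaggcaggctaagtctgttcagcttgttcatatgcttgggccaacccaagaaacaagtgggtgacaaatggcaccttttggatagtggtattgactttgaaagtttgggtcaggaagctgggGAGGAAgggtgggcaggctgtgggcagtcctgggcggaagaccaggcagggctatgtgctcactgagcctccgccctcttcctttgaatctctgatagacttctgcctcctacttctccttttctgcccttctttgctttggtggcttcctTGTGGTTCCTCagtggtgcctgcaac
PI16 held the GFI1 core and RUNX letters, MS4A4A the GFI1 core and 3 ETS matches, and CD86 and ITGAM held ETS and RUNX matches. In ITGAM, the RUNX match and the second ETS match overlap. No match to any of 7 motifs searched was found in the window of KCTD12, which says only that these letters are not there. Of 11071 genes fitted, 8430 had a promoter in the table. GAGGAA was found in 27.6% of all 27305 promoters, in 27.2% of those of fitted genes, in 30.4% of those that rose and in 37.6% of the 117 that rose at least 2-fold. AAATCA was found in 13.3%, 6.37%, 8.98% and 15.4% of these, and TGTGGT in 13.1%, 9.34%, 10.7% and 13.7%. The letters TTGCNNAA (C/EBP) were found in 10.6%, 6.81%, 8.18% and 13.7%. A match is not a bound site, and no binding data were used.

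Markers of monocytes and macrophages mostly rose where they could be tested. Of 30 genes listed, 15 passed the filter, 10 rose, 2 fell and 3 did not pass the test, with a median log2 change of 1.31 against −0.03 over all genes. Their summed level was 143.0 to 154.5 FPKM in controls and 241.2 to 302.9 FPKM with the inhibitors, and FCGR3A and LILRB4 were at 0 in all 8 libraries. The members that rose include some, CD86 and LY96 among them, that were under 1 FPKM in all 4 controls and passed the filter only through inhibitor libraries. The filter favoured a rise in such members, so the count and the median of the list lean upward. CD14, the lipopolysaccharide coreceptor, did not pass the filter. CD86, the ligand of CD28 on antigen-presenting cells, was at 0.0957 and 0.163 FPKM with DMSO, 0.0705 and 0.072 with GSK690*, 1.73 and 1.34 with RN-1 and 3.9 and 3.35 with GSK690. Controls were near 0 and GSK690 libraries were the highest (log2 change 1.64 ± 0.09, limma adjusted p = 2.33e-11). CSF1R, the receptor of macrophage colony-stimulating factor, was at 3.44 and 3.42 FPKM with DMSO, 3.59 and 3.5 with GSK690*, 12 and 9.16 with RN-1 and 12.7 and 8.75 with GSK690. The groups did not overlap (log2 change 1.36 ± 0.12, limma adjusted p = 1.56e-08). CTSS, an elastinolytic cathepsin of antigen-presenting cells, went from 26.5 ± 4.92 to 68.6 ± 3.45 FPKM. SIRPA, the inhibitory receptor for CD47, fell from 16.4 ± 1.31 to 11.2 ± 0.694 FPKM, and CD4 fell from 39.9 ± 4.75 to 28.2 ± 1.95 FPKM.

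**Figure D2:**
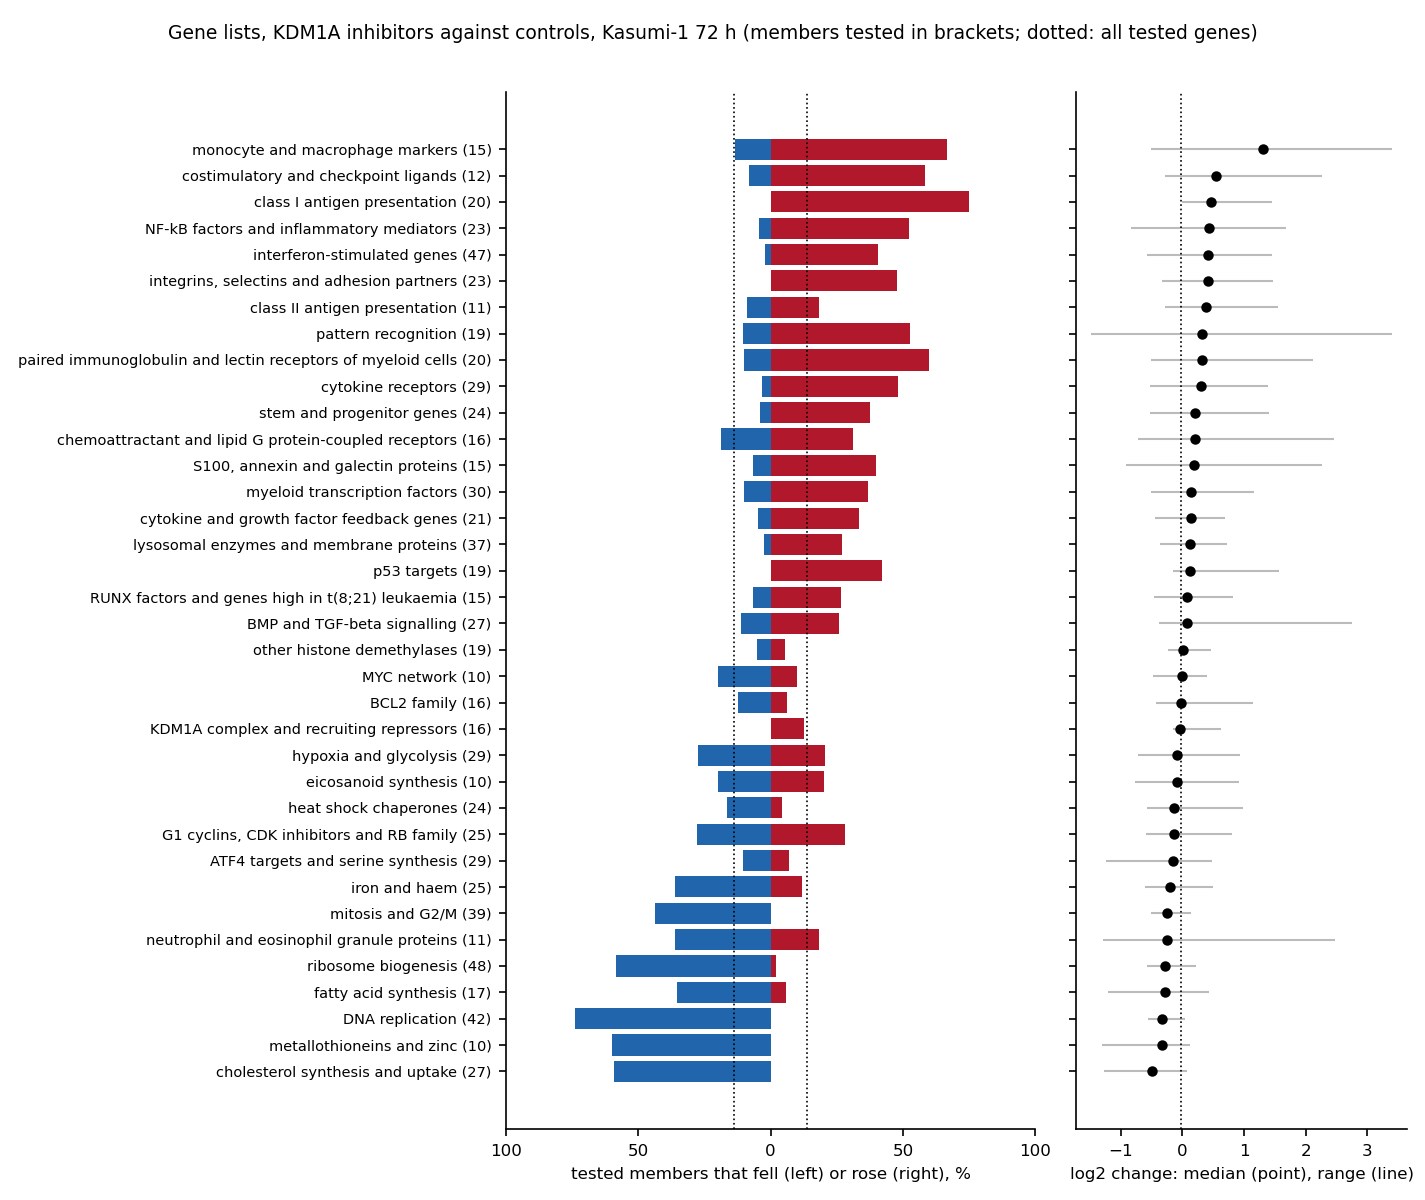
Gene lists with at least 10 tested members. The left panel gives the percent of tested members that fell or rose, and the right panel the median log2 change (point) and its range (line), with dotted lines for all tested genes. The monocyte and macrophage markers have the highest median (1.31), and the cholesterol genes have a median of −0.49.

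Receptors that sense microbes or chemoattractants changed gene by gene. Of 19 pattern recognition genes tested, 10 rose, 2 fell and 7 did not pass (median 0.32). TLR1, which pairs with TLR2 to bind lipopeptides, was at 0.0493 and 0.0807 FPKM with DMSO, 0.197 and 0.0812 with GSK690*, 2.54 and 2.41 with RN-1 and 3.59 and 4.09 with GSK690. LY86 (MD-1) and CD180, which together form a B-cell and myeloid receptor complex related to MD-2 and TLR4, went in opposite directions. LY86 was at 0.504 and 0.321 FPKM with DMSO, 0.55 and 0.50 with GSK690*, 3.57 and 3.48 with RN-1 and 2.44 and 3 with GSK690 and rose (log2 change 1.48 ± 0.18, limma adjusted p = 2.67e-06). CD180 was at 13.2 and 11.4 FPKM with DMSO, 9.6 and 9.55 with GSK690*, 3.95 and 3.3 with RN-1 and 3.17 and 2.75 with GSK690. All 4 inhibitor libraries were below all controls, and its fall was the largest of any gene fitted (log2 change -1.47 ± 0.14, limma adjusted p = 3.98e-08). Of 16 chemoattractant and lipid receptors tested, 5 rose, 3 fell and 8 did not pass (median 0.20). GPR65, a proton-sensing receptor, went from 0.979 ± 0.275 to 5.67 ± 0.862 FPKM. P2RY14, a receptor for UDP-glucose, went from 1.33 ± 0.417 to 6.21 ± 0.736 FPKM. CXCR4, the receptor of CXCL12, went from 0.623 ± 0.111 to 2.06 ± 0.0767 FPKM.

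Adhesion molecules moved in 1 direction only among those that passed the test. Of 23 integrins, selectins and partners tested, 11 rose, 0 fell and 12 did not pass (median 0.41). ITGAM (CD11b), the alpha chain of the complement receptor 3 integrin, was at 0.563 and 0.377 FPKM with DMSO, 0.826 and 0.495 with GSK690*, 3.32 and 2.41 with RN-1 and 4.48 and 3.36 with GSK690. Each inhibitor library was above every control (log2 change 1.48 ± 0.21, limma adjusted p = 2.56e-05). ITGAX (CD11c) went from 0.71 ± 0.218 to 2.7 ± 0.795 FPKM. ICAM2, a ligand of the integrin LFA-1, went from 4.34 ± 0.559 to 13.7 ± 2.2 FPKM. ITGB2, the beta chain shared by CD11b and CD11c, did not pass the test, with means of 46.8 ± 2.1 and 54.7 ± 12.4 FPKM.

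Of 20 paired immunoglobulin and lectin receptors tested, 12 rose, 2 fell and 6 did not pass (median 0.31), and without RN-1 replicate 1 the count that rose was 7. SIRPB2, a member of the signal-regulatory protein family, was at 2.52 and 2.97 FPKM with DMSO, 3.78 and 3.92 with GSK690*, 15.5 and 17.7 with RN-1 and 17.8 and 19.4 with GSK690. HCST (DAP10), a signalling adaptor, went from 14 ± 2.24 to 32.6 ± 9.31 FPKM. LILRB1 and LILRA2, an inhibitory and an activating receptor of the leukocyte immunoglobulin-like family, went from 1.82 ± 0.234 to 4.39 ± 0.263 FPKM and from 50.1 ± 1.94 to 85.7 ± 8.62 FPKM. Of 8 Fc receptor genes tested, 5 rose and 3 did not pass (median 0.42), and 3 rose when replicate 2 of DMSO, of GSK690* or of RN-1 was left out. FCGR2B, the inhibitory receptor for IgG, was at 0.194 and 0.0905 FPKM with DMSO, 0.0689 and 0.0866 with GSK690*, 1.56 and 0.958 with RN-1 and 1.71 and 1.24 with GSK690 (log2 change 1.08 ± 0.24, limma adjusted p = 0.00201). FCGR2A, FCGR2B and FCGR2C are near-identical over much of their length, as are several genes of the LILR and SIRP families, so that the split of fragments between them is uncertain.

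Granule protein genes divided. Of 11 tested, LYZ and SERPINB1 rose, 4 fell and 5 did not pass (median -0.25). PRTN3, the azurophil granule serine protease proteinase 3, was at 215 and 248 FPKM with DMSO, 203 and 222 with GSK690*, 130.3 and 80.9 with RN-1 and 77.2 and 82 with GSK690. The inhibitor libraries were lower in all 4 cases (log2 change -1.28 ± 0.37, limma adjusted p = 0.0128), and the adjusted p was 0.0531 without RN-1 replicate 2. RNASE2, the eosinophil-derived neurotoxin, was at 32.8 and 29.1 FPKM with DMSO, 24.6 and 22.6 with GSK690*, 14.6 and 11.1 with RN-1 and 9.43 and 8.81 with GSK690, and RNASE3, the eosinophil cationic protein, fell from 1.63 ± 0.418 to 0.443 ± 0.132 FPKM. CTSG (cathepsin G) fell from 103 ± 7.62 to 59.5 ± 8.65 FPKM. MPO, the myeloperoxidase of the same azurophil granules, was at 2190 and 2935 FPKM with DMSO, 2530 and 2910 with GSK690*, 2410 and 2562 with RN-1 and 2937 and 2910 with GSK690. The MPO groups overlapped, with a log2 change of 0.04 ± 0.19 that did not pass. Leaving out GSK690* replicate 1 gave 2 genes that fell, and leaving out RN-1 replicate 2 gave 1. Of 6 phagocyte NADPH oxidase genes tested, NCF1 and NCF4, which encode the cytosolic subunits p47phox and p40phox, rose. NCF1 has near-identical pseudogenes, and its level, from 1.49 ± 0.26 to 3.11 ± 0.594 FPKM, may include their fragments.

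Stem and progenitor genes were not lower as a list. Of 24 tested, 9 rose, 1 fell and 14 did not pass (median 0.20). CD34, the sialomucin that marks progenitors, was at 68.6 and 78.3 FPKM with DMSO, 83.6 and 105 with GSK690*, 201 and 242 with RN-1 and 203 and 245 with GSK690. Every inhibitor library was above every control (log2 change 1.41 ± 0.22, limma adjusted p = 4.84e-05). ERG, an ETS factor of stem cells, went from 35.1 ± 4.23 to 58 ± 6.93 FPKM, and CD33, a sialic-acid-binding receptor of myeloid progenitors, from 18.9 ± 1.17 to 31.5 ± 2.82 FPKM. SPINK2, a serine protease inhibitor found in early progenitors, went from 0.357 ± 0.0596 to 1.31 ± 0.64 FPKM. KIT, the stem cell factor receptor, was the member that fell, from 304 ± 11.9 to 213 ± 25.7 FPKM (log2 change -0.52 ± 0.11, limma adjusted p = 0.00097).

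Of 15 RUNX factors and genes known to be high in t(8;21) leukaemia, 4 rose, 1 fell and 10 did not pass (median 0.08). The count that rose was 2 when GSK690* replicate 1, or replicate 2 of either inhibitor, was left out. RUNX1T1, the fusion partner, was at 53.5 and 47.9 FPKM with DMSO, 48.4 and 49.1 with GSK690*, 32.5 and 47.1 with RN-1 and 51.7 and 50.9 with GSK690. Its groups overlapped (log2 change -0.15 ± 0.10, limma adjusted p = 0.302), and a gene-level value does not separate the fusion transcript from others. SIPA1L2, a Rap GTPase activating protein, rose from 1.13 ± 0.0844 to 2.76 ± 0.228 FPKM. Of 30 myeloid transcription factors tested, 11 rose, 3 fell and 16 did not pass (median 0.15). SPI1 (PU.1), the ETS factor of the monocyte lineage, was at 64.5 and 69 FPKM with DMSO, 60.5 and 69.8 with GSK690*, 79.4 and 56.7 with RN-1 and 61.8 and 60.2 with GSK690 and did not pass. IRF8, needed for monocyte and dendritic cell development, went from 1.86 ± 0.394 to 4.05 ± 0.323 FPKM, and IRF1, an interferon-induced activator, from 31.2 ± 4.31 to 70.5 ± 3.81 FPKM. KLF10 went from 2.26 ± 0.133 to 5.53 ± 0.917 FPKM and NFIL3 from 1.14 ± 0.101 to 2.31 ± 0.182 FPKM. CEBPA did not pass the filter.

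Cytokine receptors rose more often than they fell. Of 29 tested, 14 rose, 1 fell and 14 did not pass (median 0.31). IL4R, the shared alpha chain for the interleukin-4 and interleukin-13 receptors, was at 0.787 and 1.33 FPKM with DMSO, 1.49 and 1.9 with GSK690*, 4.26 and 5.16 with RN-1 and 4.77 and 6.54 with GSK690 (log2 change 1.39 ± 0.18, limma adjusted p = 6.69e-06). IL21R went from 0.0458 ± 0.0562 to 1.51 ± 0.183 FPKM, and TNFRSF14 (HVEM), the receptor of LIGHT and BTLA, from 3.65 ± 0.748 to 10.2 ± 1.1 FPKM. Of 21 feedback genes of cytokine and growth factor signalling tested, 7 rose and 1 fell (median 0.14), and 4 rose without GSK690* replicate 1. DUSP10, a phosphatase of p38 and JNK, went from 1.73 ± 0.444 to 3.35 ± 0.253 FPKM, and SOCS2, an inhibitor of JAK-STAT signalling, from 19.4 ± 0.949 to 30.3 ± 3.08 FPKM.

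Inflammatory mediators and interferon-stimulated genes rose in part. Of 23 NF-kB factors and mediators tested, 12 rose, 1 fell and 10 did not pass (median 0.43). TNF was at 1.98 and 1.2 FPKM with DMSO, 2.75 and 1.42 with GSK690*, 9.94 and 4.22 with RN-1 and 9.72 and 5.23 with GSK690. TNFSF10 (TRAIL), a ligand of death receptors, was at 1.09 and 0.918 FPKM with DMSO, 1.05 and 1.57 with GSK690*, 6.05 and 5.85 with RN-1 and 5.86 and 5.8 with GSK690. Both genes were low in controls and without overlap. LTB, which forms lymphotoxin on the cell surface, went from 0.319 ± 0.105 to 1.73 ± 0.431 FPKM, and NFKBIZ, a nuclear IkB protein, from 2.71 ± 0.566 to 7.21 ± 1.08 FPKM. Of 47 interferon-stimulated genes tested, 19 rose, 1 fell and 27 did not pass (median 0.41). TRIM22, an antiviral E3 ligase, went from 6.1 ± 1.33 to 18.1 ± 2.45 FPKM, GBP2, a guanylate-binding protein, from 0.0244 ± 0.0182 to 1.68 ± 0.416 FPKM, and HERC5, the ligase that attaches ISG15, from 3.09 ± 0.337 to 7.98 ± 0.448 FPKM. Without RN-1 replicate 1, 15 of the 47 rose, and 29 rose when the 8 libraries were fitted as 2 groups of 4.

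Class I antigen presentation and class II were counted apart. Of 20 class I genes tested, 15 rose, 0 fell and 5 did not pass (median 0.46), and 12 rose without RN-1 replicate 1. PSMB9, a catalytic subunit of the immunoproteasome, was at 2.38 and 2.75 FPKM with DMSO, 4.1 and 3.31 with GSK690*, 14 and 8.49 with RN-1 and 10.03 and 8.93 with GSK690. The groups were well apart (log2 change 1.45 ± 0.17, limma adjusted p = 1.24e-06). HLA-B went from 52.5 ± 6.81 to 103 ± 12.7 FPKM and HLA-C from 31.7 ± 3.49 to 70.3 ± 11.3 FPKM. HLA genes share sequence, so their separate levels are uncertain. Of 11 class II genes tested, 2 rose, 1 fell and 8 did not pass (median 0.38, and 0.22 to 0.77 over the alternative settings). The count that rose was 4 without RN-1 replicate 2 or in fits on the 8 libraries alone, and 7 with the replicate number as a block. The genes that rose were IFI30, a lysosomal thiol reductase, from 0.336 ± 0.647 to 2.78 ± 1.17 FPKM, and CTSS, both of which act in antigen processing, and none encodes a class II chain. HLA-DRA was at 3.9 and 1.15 FPKM with DMSO, 4.31 and 1.56 with GSK690*, 8.91 and 2.85 with RN-1 and 8.02 and 2.52 with GSK690, and did not pass (log2 change 0.77 ± 0.38, limma adjusted p = 0.135). The groups overlapped, but within each replicate number both inhibitor libraries lay above both controls. Of 12 costimulatory and checkpoint ligands tested, 7 rose and 1 fell (median 0.55), among them CD86 and CD48 above and CD200, from 64.6 ± 3.82 to 100.2 ± 4.21 FPKM.

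Among lysosomal genes, 10 of 37 rose and 1 fell (median 0.13). CTSB, a cysteine cathepsin, went from 29.1 ± 0.823 to 48.8 ± 5.17 FPKM, and NPC2, which carries cholesterol out of the lysosome, from 83.6 ± 8.03 to 134 ± 13.6 FPKM. TFEB, the transcription factor of lysosomal genes, went from 1.63 ± 0.433 to 3.22 ± 0.857 FPKM. Of 15 S100, annexin and galectin genes tested, 6 rose and 1 fell (median 0.19). ANXA2 was at 8.46 and 9.44 FPKM with DMSO, 8.53 and 9.97 with GSK690*, 28.1 and 29.5 with RN-1 and 28.7 and 35.2 with GSK690 (log2 change 1.63 ± 0.13, limma adjusted p = 4.16e-09). Of 10 genes of eicosanoid synthesis tested, 2 rose and 2 fell. ALOX5, the 5-lipoxygenase, rose from 0.0615 ± 0.022 to 1.02 ± 0.204 FPKM, while its partner ALOX5AP fell from 2.63 ± 0.786 to 1.09 ± 0.135 FPKM and the thromboxane synthase TBXAS1 fell from 1.39 ± 0.14 to 0.562 ± 0.127 FPKM.

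Most genes of cholesterol synthesis and uptake fell. Of 27 tested, 16 fell, 0 rose and 11 did not pass, with a median log2 change of -0.49 against −0.03 over all genes. DHCR7, which makes cholesterol from 7-dehydrocholesterol, was at 58 and 70.9 FPKM with DMSO, 59 and 73.2 with GSK690*, 28.1 and 44.9 with RN-1 and 31.1 and 42.1 with GSK690 (log2 change -0.84 ± 0.17, limma adjusted p = 0.000714). HMGCS1, the synthase before the rate-limiting step, was at 62.2 and 72.2 FPKM with DMSO, 51.2 and 67.1 with GSK690*, 28.9 and 46.9 with RN-1 and 28.8 and 42.3 with GSK690. In both genes each inhibitor library was under every control, and replicate 2 lay above replicate 1 for every agent. HMGCS1 had an adjusted p of 0.0221 that rose to 0.0629 to 0.1 when RN-1 replicate 1, GSK690 replicate 1, DMSO replicate 2 or GSK690* replicate 2 was left out. SREBF2, the transcription factor of this pathway, fell from 73.7 ± 4.83 to 55.9 ± 5.85 FPKM. INSIG1 did not pass. Replicate 2 lay above replicate 1 in 22, 26, 20 and 25 of the 27 genes with DMSO, GSK690*, RN-1 and GSK690, and 10 of them fell when GSK690* replicate 2 was left out.

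**Figure D3:**
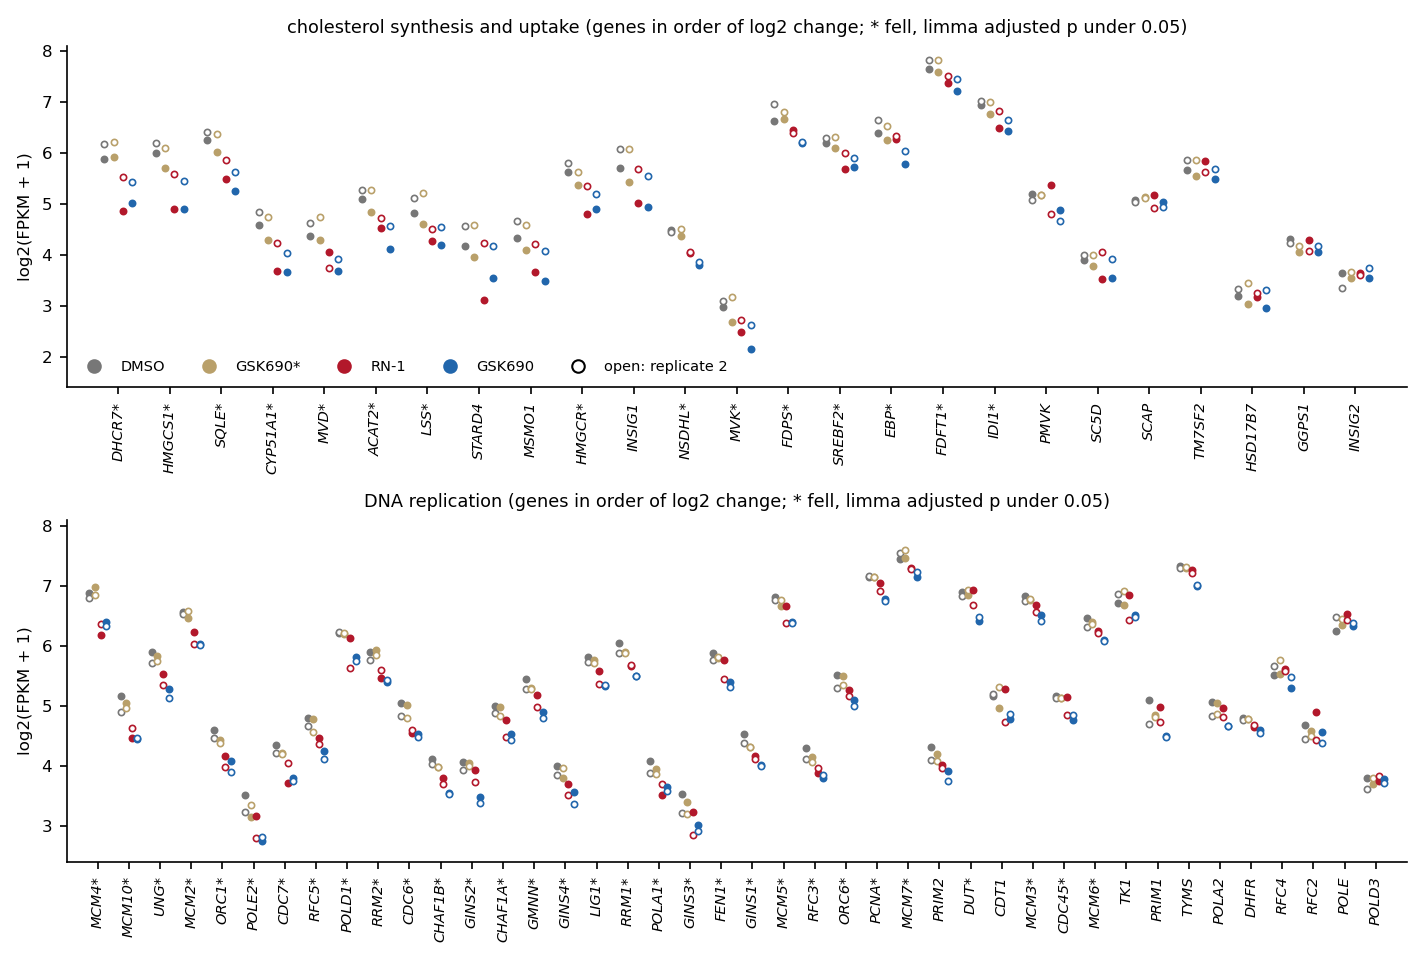
Level, as log2(FPKM + 1), of tested genes of the cholesterol list (upper panel) and the DNA replication list (lower panel) in the 8 libraries, in order of log2 change. Points are libraries by agent (filled replicate 1, open replicate 2), and a star marks genes that fell. Most cholesterol genes have open points above filled ones of the same agent.

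Fatty acid synthesis shared the direction. Of 17 tested, 6 fell, 1 rose and 10 did not pass (median -0.28), and 11 fell with the replicate number as a block. SCD, the stearoyl-CoA desaturase, was at 69.4 and 96.7 FPKM with DMSO, 58.5 and 94.5 with GSK690*, 23.3 and 48.9 with RN-1 and 25.4 and 42.2 with GSK690 (log2 change -1.21 ± 0.26, limma adjusted p = 0.00178). FASN, the fatty acid synthase, went from 96.5 ± 15.5 to 61.1 ± 9.92 FPKM, and FADS2, a desaturase of polyunsaturated fatty acids, from 179 ± 39.1 to 102 ± 27.7 FPKM. Of 6 genes of cholesterol efflux and LXR response tested, SOAT1, which esterifies cholesterol, rose from 17 ± 1.14 to 21.9 ± 3.5 FPKM with overlapping groups, and 5 did not pass.

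Genes of DNA replication fell by small amounts. Of 42 tested, 31 fell, 0 rose and 11 did not pass (median -0.32). MCM4, a subunit of the replicative helicase, went from 116 ± 6.75 to 79.1 ± 5.42 FPKM, MCM2 from 91.9 ± 3.21 to 66.7 ± 4.95 FPKM, MCM10, which activates the helicase, from 31.5 ± 2.72 to 21.7 ± 1.37 FPKM, and UNG, the uracil DNA glycosylase, from 54.8 ± 3.1 to 39.2 ± 4.66 FPKM. In these 4 genes every inhibitor library lay below every control. Of 39 genes of mitosis and G2/M tested, 17 fell, 0 rose and 22 did not pass (median -0.24). The count that fell was 5 without DMSO replicate 1, 8 without GSK690 replicate 1 or GSK690* replicate 2, 10 without RN-1 replicate 1 and 11 without GSK690* replicate 1. CCNA2 (cyclin A2) was at 38.3 and 34 FPKM with DMSO, 34.6 and 33.1 with GSK690*, 28.3 and 27.5 with RN-1 and 24.3 and 25.5 with GSK690 (log2 change -0.40 ± 0.10, limma adjusted p = 0.00407). PLK1, a mitotic kinase, went from 49.5 ± 2.4 to 40.2 ± 2.49 FPKM, and BUB1B, of the spindle checkpoint, from 22.2 ± 1.41 to 16.6 ± 1.09 FPKM.

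Promoters of sterol and mitotic genes that fell are shown because each class has a well known element. The stretches are RefSeq sequence of GRCh38.p14 with the same bounds as those of the genes that rose. Capitals mark CCAAT (NF-Y), TCACNCCAC (sterol response element) and TTTGAA (CHR), searched on both strands with no overlap between them here.
DHCR7 (chr11:71448344-71448643, minus strand): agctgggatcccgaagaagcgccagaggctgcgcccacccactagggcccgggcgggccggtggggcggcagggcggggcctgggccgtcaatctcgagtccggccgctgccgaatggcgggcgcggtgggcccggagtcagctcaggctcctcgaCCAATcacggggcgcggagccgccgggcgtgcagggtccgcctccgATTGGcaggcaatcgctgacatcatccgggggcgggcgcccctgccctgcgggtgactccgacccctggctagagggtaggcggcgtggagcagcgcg
HMGCS1 (chr5:43313363-43313662, minus strand): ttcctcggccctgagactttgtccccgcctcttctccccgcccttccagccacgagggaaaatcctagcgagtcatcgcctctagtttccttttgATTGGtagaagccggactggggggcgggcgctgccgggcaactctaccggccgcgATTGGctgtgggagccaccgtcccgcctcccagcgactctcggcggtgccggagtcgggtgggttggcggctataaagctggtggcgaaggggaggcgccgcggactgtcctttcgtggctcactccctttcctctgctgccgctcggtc
SREBF2 (chr22:41832855-41833154, plus strand): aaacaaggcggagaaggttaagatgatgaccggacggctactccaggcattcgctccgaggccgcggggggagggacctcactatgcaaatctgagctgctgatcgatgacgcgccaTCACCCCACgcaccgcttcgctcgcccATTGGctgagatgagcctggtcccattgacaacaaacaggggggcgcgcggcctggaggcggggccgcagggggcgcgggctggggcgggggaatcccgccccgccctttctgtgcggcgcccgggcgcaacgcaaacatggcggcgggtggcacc
PLK1 (chr16:23678639-23678938, plus strand): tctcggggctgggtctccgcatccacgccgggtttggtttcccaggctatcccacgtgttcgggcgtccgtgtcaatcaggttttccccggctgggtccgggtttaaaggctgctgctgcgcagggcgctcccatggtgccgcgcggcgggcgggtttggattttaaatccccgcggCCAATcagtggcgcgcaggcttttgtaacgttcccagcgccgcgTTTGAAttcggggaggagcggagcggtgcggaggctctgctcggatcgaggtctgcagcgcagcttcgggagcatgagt
CCAAT or its complement was found in all 4, at 2 places in DHCR7 and HMGCS1, the sterol element in SREBF2 and the CHR letters in PLK1. CCAAT was found in 35.7% of all promoters, 37.1% of those of fitted genes and 40.1% of those that fell. It was found in 71.4% of 21 promoters of the cholesterol list, 75.8% of 33 of the mitosis list, 51.4% of 37 of the DNA replication list and 0% of 15 of the adhesion list. The share did not run with direction across lists. It was 28.9% of 38 in the ribosome biogenesis list, where most genes fell, and 43.8% of 16 in the class I list, where most rose. Among members that fell it was 81.8% of 11 cholesterol, 61.5% of 13 mitosis, 60.7% of 28 DNA replication and 13.6% of 22 ribosome biogenesis promoters. TTTGAA was found in 15.4% of all promoters, 9.68% of those of fitted genes and 63.6% of those of the mitosis list. TCACNCCAC was found in 1.15% of all promoters, 1.13% of those of fitted genes and 1.09% of those that fell. In the cholesterol list 1 of 21 promoters held it, that of SREBF2 shown here, so the element was not common in these windows. No binding was measured.

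Other growth-related lists were mixed. Of 25 G1 cyclins, CDK inhibitors and RB family genes tested, 7 rose and 7 fell, and 4 fell without GSK690* replicate 1 or without GSK690 replicate 2. BTG1, an antiproliferative factor, rose from 9 ± 0.692 to 16.5 ± 1.33 FPKM, RB1 from 30.1 ± 1.75 to 43.8 ± 4.62 FPKM and CDKN1B (p27) from 13.7 ± 1.38 to 19.3 ± 1.88 FPKM, and CDKN1A did not pass the filter. MYC fell from 179.6 ± 3.6 to 129 ± 15 FPKM while MYCN rose from 1.06 ± 0.19 to 1.71 ± 0.0602 FPKM, and 7 of the 10 genes of the MYC network did not pass. Of 48 ribosome biogenesis genes tested, 28 fell and 1 rose (median -0.28), and 35 fell without RN-1 replicate 1. POLR1A, the largest subunit of RNA polymerase I, went from 15.7 ± 2.46 to 10.2 ± 1.37 FPKM, and UTP20, of the small subunit processome, from 6.77 ± 1.26 to 4.29 ± 0.267 FPKM.

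Of 19 p53 target genes tested, 8 rose and 0 fell (median 0.12). TNFRSF10B, the TRAIL receptor DR5, was at 3.18 and 5.65 FPKM with DMSO, 5.49 and 7.05 with GSK690*, 13.3 and 18.8 with RN-1 and 16.1 and 22 with GSK690 (log2 change 1.56 ± 0.24, limma adjusted p = 6.01e-05). The ligand TNFSF10 above and this receptor were both higher in all 4 inhibitor libraries. TNFRSF10D, another receptor of this ligand and named after its values were seen, also rose, from 4.855 ± 1.052 to 11.79 ± 0.7372 FPKM. TP53INP1 went from 2.8 ± 0.584 to 5.81 ± 1.52 FPKM. In the BCL2 family, the BH3-only gene BMF rose from 1.32 ± 0.268 to 4.1 ± 0.50 FPKM, BCL2L11 (BIM) fell from 6.14 ± 0.536 to 4.33 ± 0.586 FPKM, BCL2A1 fell from 1.28 ± 0.338 to 0.817 ± 0.126 FPKM and 13 of 16 did not pass.

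Metals and metabolism followed. Of 10 metallothionein and zinc genes tested, 6 fell and 0 rose (median -0.32), and 2 fell without DMSO replicate 1. MT2A, a metal-binding cysteine-rich protein, was at 50.1 and 44.4 FPKM with DMSO, 45.2 and 41.2 with GSK690*, 29.1 and 16.4 with RN-1 and 15.6 and 13.8 with GSK690 (log2 change -1.28 ± 0.21, limma adjusted p = 8.75e-05), and MT1G was at 6.83 and 3.81 FPKM with DMSO, 5.55 and 3.46 with GSK690*, 2.52 and 0.939 with RN-1 and 1.33 and 0.853 with GSK690. Metallothionein genes are near-identical, so the split between them is uncertain. Of 25 iron and haem genes tested, 9 fell and 3 rose, and 5 fell without DMSO replicate 1 or without any 1 of the GSK690* and GSK690 libraries. The count that rose was 1 without replicate 1 of DMSO, RN-1 or GSK690*, or without GSK690 replicate 2. Of 29 hypoxia and glycolysis genes tested, 6 rose and 8 fell, and leaving out DMSO replicate 1, RN-1 replicate 2, GSK690 replicate 2 or either GSK690* library gave 3 to 5 that fell. The rise was led by NDRG1, a stress-responsive gene, from 10.5 ± 1.99 to 20.8 ± 1.45 FPKM, and the fall by ALDOC, from 18.5 ± 2.65 to 10.8 ± 1.52 FPKM. ASS1, the argininosuccinate synthase, fell from 28.1 ± 2.63 to 11.4 ± 2.47 FPKM, while 24 of 29 genes of the ATF4 and serine synthesis list did not pass, and 7, 6 and 5 in place of 3 fell without RN-1 replicate 1, DMSO replicate 2 and GSK690 replicate 1. With the replicate number as a block, 14 of the 29 fell. Of 24 heat shock genes tested, 4 fell and BAG3, a cochaperone of HSP70, rose from 6.52 ± 0.262 to 13.9 ± 1.08 FPKM. The count that fell was 7 with quantile scaling, 8 when the 8 libraries were fitted as 2 groups of 4 and 10 with the replicate number as a block.

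Of 6 clustered histone genes tested, 4 rose and 2 did not pass (median 0.80). HIST1H2AC was at 1.12 and 1.46 FPKM with DMSO, 0.975 and 1.36 with GSK690*, 4.71 and 4.25 with RN-1 and 3.62 and 4.89 with GSK690. Transcripts of such genes often lack a poly(A) tail, they are near-identical, and the kind of library is not given in the sources used here. Of 27 BMP and TGF-beta genes tested, 7 rose, 3 fell and 17 did not pass, and 0 fell without GSK690* replicate 1 or GSK690 replicate 1 (median 0.08). Besides the coreceptor RGMB, ACVR1, a type I BMP receptor, went from 0.582 ± 0.188 to 3.69 ± 0.448 FPKM, ACVR2A, a type II activin receptor, from 0.581 ± 0.121 to 2.09 ± 0.408 FPKM, and ID3, a BMP target that inhibits basic helix-loop-helix factors, from 0.39 ± 0.182 to 2.88 ± 0.763 FPKM.

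Markers of other blood and tissue cells were low or partly shared with Kasumi-1. Of 27 T and NK cell markers, 4 passed the filter. GZMA, NKG7 and CD8A rose, and CD247 fell (log2 change -0.29). Their list had a summed level of 3.16 to 4.77 FPKM in controls and 8.18 to 8.98 FPKM with the inhibitors. In it 8 markers, among them CD8B, CD28 and PRF1, were at 0 throughout. Of 21 megakaryocyte markers, 3 passed the filter, with MMRN1 and NFE2 up and PLEK down, a sum of 131 to 144 FPKM in controls and 108 to 119 FPKM with the inhibitors, and PF4, PPBP, VWF and CMTM5 at 0. Of 26 erythroid markers, 5 passed, 2 rose and 1 fell, with a sum of 214 to 232 FPKM in controls and 239 to 310.0 FPKM with the inhibitors, and 9 at 0, including HBB and AHSP. Of 21 mast cell, basophil and eosinophil markers, 5 passed, 3 fell (CTSG, KIT and SLC18A2) and TPSB2 rose, with a sum of 443 to 510.3 FPKM in controls and 300.1 to 369 FPKM with the inhibitors, and MS4A2 and CLC at 0. The B cell list (21 listed, 5 tested, 2 rose) summed to 210.5 to 226 FPKM in controls and 212 to 230.0 FPKM with the inhibitors, and MS4A1, CD24, EBF1 and VPREB1 were at 0. The dendritic cell list (23 listed, 7 tested, 2 rose, 1 fell) summed to 35.7 to 42.3 FPKM in controls and 36.3 to 43.4 FPKM with the inhibitors, with CLEC9A and CLEC4C at 0. Of 17 epithelial, fibroblast and endothelial markers, 1 passed the filter, and KRT19, COL1A2, COL3A1, DCN and LUM were at 0. The part of any other cell type in the results was not tested further.

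The inhibitors were then compared with each other at the same dose and time. Against DMSO, RN-1 raised 892 genes and lowered 559 (8.06% and 5.05% of genes fitted). Against its isomer, GSK690 raised 722 and lowered 472 (6.52% and 4.26%). These contrasts share no library. Of their calls, 794 were common, which is 54.7% of those of RN-1 and 66.5% of those of GSK690, and all 794 had the same sign. The counts that fell rested most on single libraries. With RN-1, 525 genes rose and 97 fell without DMSO replicate 1, and 542 rose and 180 fell without RN-1 replicate 1. With GSK690, 305 rose and 91 fell without GSK690* replicate 1, and 474 rose and 152 fell without its replicate 2. Without GSK690 replicate 1 these were 435 and 167, and without its replicate 2 they were 335 and 105. With the replicate number as a block, 1441 rose and 1129 fell with RN-1, and 1217 rose and 1245 fell with GSK690.

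Tested directly, RN-1 and GSK690 differed in 1 gene, with 0 genes higher with RN-1 (0%) and 1 lower (0.00903% of 11073), and 829 genes had an unadjusted p under 0.05. That gene was CD86, whose values are given above. GSK690 libraries held more CD86 than RN-1 libraries, and all 4 lay above the controls. The RN-1 minus GSK690 difference was -0.87 (95% interval -1.14 to -0.59) on the log2 scale (limma adjusted p = 0.0163). Without RN-1 replicate 2 the count was 179, and it was 0 when RN-1 replicate 1 or either GSK690 library was left out, or with a pseudocount of 0.1. For the other genes a missed threshold does not show equal action. The 95% interval of the difference had a median distance of 0.28 from the estimate to its bound and lay within ±1 for 98.8% of genes. For PI16 the difference was 0.13 (95% interval -0.21 to 0.47), for KCTD12 -0.34 (95% interval -0.63 to -0.06), for CD48 0.30 (95% interval -0.35 to 0.95) and for CSF1R -0.01 (95% interval -0.35 to 0.34). GSK690* against DMSO gave no call in either direction (0% and 0%) with limma, and 109 genes had an unadjusted p under 0.05. The interval lay within ±1 for 99.1% of genes. Named after their values were seen, LYZ had a GSK690* minus DMSO difference of 0.79 (95% interval 0.28 to 1.30) and GLIPR1 one of 0.79 (95% interval 0.32 to 1.27), with limma adjusted p = 1 and 1. For PI16 it was -0.08 (95% interval -0.42 to 0.26).

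**Figure D4:**
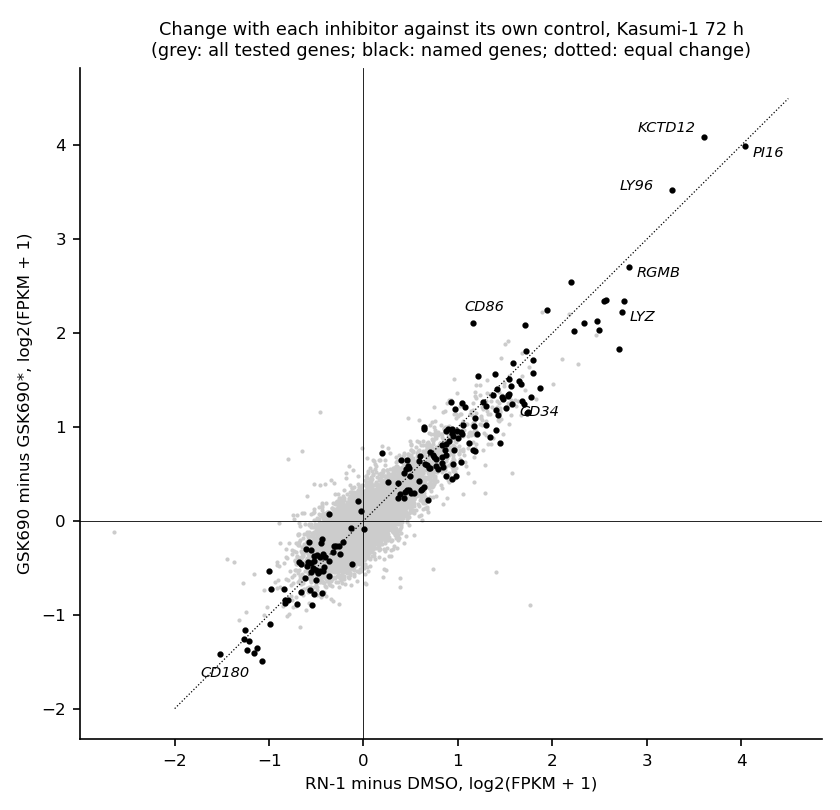
Log2 change of each tested gene with RN-1 against DMSO (x axis) and with GSK690 against GSK690* (y axis) in Kasumi-1 at 72 h. Points are genes, black for the named ones, and the dotted line marks equal change. PI16 and KCTD12 lie farthest out on both axes, and CD86 lies above the dotted line.

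At 24 h the same comparison in Kasumi-1 called 2480 of the 11074 genes that passed the filter. Of these, 1752 were shared with 72 h, all of the same sign (56.8% of the 72 h calls and 70.7% of the 24 h calls). Of the 173 genes up at least 2-fold at 72 h, 161 also rose at 24 h. The inhibitor effect itself differed between the times in 32 genes, 29 more positive at 72 h (0.262%) and 3 more negative (0.0271%), and leaving out any 1 of the 72 h libraries other than replicate 2 of RN-1 or of GSK690* gave 16 to 20. The filter was set on the 72 h libraries, which favours genes raised at 72 h. With no filter on low values, 44 genes were more positive at 72 h and 11 more negative. PI16 went from 0.049 ± 0.0447 to 5.88 ± 1.49 FPKM at 24 h, and its effect was larger at 72 h by 1.33 (95% interval 0.99 to 1.67). KCTD12 went from 1.78 ± 0.147 to 17.5 ± 0.703 FPKM at 24 h, a difference of 1.11 (95% interval 0.83 to 1.39). MARCKS, an actin-binding substrate of protein kinase C, rose from 0.252 ± 0.0684 to 2.42 ± 0.598 FPKM at 72 h and went from 0.253 ± 0.127 to 0.825 ± 0.138 FPKM at 24 h. HOPX, a homeodomain cofactor, went from 2.14 ± 0.462 to 5.16 ± 0.597 FPKM at 72 h and from 2.32 ± 0.307 to 2.67 ± 0.761 FPKM at 24 h. ENTPD1 (CD39), which degrades extracellular ATP, had an effect at 24 h, from 8.59 ± 0.812 to 16.6 ± 0.821 FPKM, and none that passed at 72 h, from 7.76 ± 0.639 to 8.23 ± 0.722 FPKM, with a tested difference of -0.80 (95% interval -1.13 to -0.48). CD86 went from 0.254 ± 0.0742 to 4.96 ± 0.613 FPKM at 24 h and from 0.1003 ± 0.0434 to 2.58 ± 1.24 FPKM at 72 h. On the log2(FPKM + 1) scale its effect differed at 72 h by -0.61 (95% interval -0.88 to -0.34). At such low levels this difference depends on the pseudocount. With a pseudocount of 0.1, 14 genes were called more positive at 72 h and 0 more negative, so the calls of ENTPD1 and CD86 were lost. At 24 h 34 of the 42 DNA replication genes and 37 of the 39 mitosis genes fell, against 31 and 17 at 72 h. Median log2 changes of the lists at 24 h were -0.41 and -0.44, against -0.02 over all genes. No member of either list was among the 32 genes whose effect differed between the times. With 0.262% and 0.0271% of all genes called, such an absence says little about lists of 42 and 39 genes. Time and the day of the experiment cannot be told apart here.

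In SKNO-1 at 72 h 1068 of the 11074 genes that passed the filter changed. Of these, 726 were shared with Kasumi-1 (23.5% of the Kasumi-1 calls and 68.0% of the SKNO-1 calls), 718 of them with the same sign. Of the 173 genes up at least 2-fold in Kasumi-1, 117 also rose in SKNO-1. The effect differed between the lines in 343 genes, 252 more positive in Kasumi-1 (2.28%) and 91 more negative (0.822%). The filter was set on the Kasumi-1 libraries of 72 h, so genes that were raised only in SKNO-1 could be left out. This favours the Kasumi-1 side of the split. GFI1B, which went from 0.0917 ± 0.109 to 14.9 ± 5.11 FPKM in SKNO-1, was left out. With no filter on low values, 365 genes were more positive in Kasumi-1 and 198 more negative. PI16 had means of 0.0218 ± 0.0435 and 0.0919 ± 0.0377 FPKM in SKNO-1, where no change was called (limma adjusted p = 0.661), a difference of 3.92 (95% interval 3.58 to 4.26). KCTD12 rose in both, in SKNO-1 from 1.53 ± 0.346 to 7.36 ± 0.335 FPKM. FGD6, an exchange factor for CDC42, rose from 0.545 ± 0.135 to 5.73 ± 1.55 FPKM in Kasumi-1 and went from 0.141 ± 0.0292 to 0.243 ± 0.0639 FPKM in SKNO-1. CTSO, a cysteine cathepsin, rose from 2.87 ± 0.566 to 16.9 ± 1.19 FPKM in Kasumi-1 and went from 0.199 ± 0.025 to 0.748 ± 0.128 FPKM in SKNO-1. RGS18, a regulator of G protein signalling in platelets and myeloid cells, rose from 6.17 ± 0.635 to 19.7 ± 1.8 FPKM and went from 18.9 ± 1.16 to 17.3 ± 1.18 FPKM in SKNO-1.

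Some genes responded more in SKNO-1. WFDC1, a secreted protein with a WAP domain, fell from 6.58 ± 1.15 to 3.21 ± 0.761 FPKM in Kasumi-1 and rose from 3.89 ± 1.47 to 28.6 ± 5.41 FPKM in SKNO-1, a tested difference of -3.48 (95% interval -4.19 to -2.77). FCGR2B went from 1.01 ± 0.123 to 29.4 ± 6.4 FPKM in SKNO-1, TSPAN7 from 0.774 ± 0.593 to 15.7 ± 2.73 FPKM and GZMA, a granule protease of cytotoxic lymphocytes, from 0.145 ± 0.0964 to 11.1 ± 2.46 FPKM. All 3 also rose in Kasumi-1, by less on the log2(FPKM + 1) scale. In FPKM, TSPAN7 rose by more in Kasumi-1, from 83.2 ± 4.83 to 144 ± 5.62. CSF1R rose in Kasumi-1 and went from 0.536 ± 0.164 to 0.921 ± 0.24 FPKM in SKNO-1 (limma adjusted p = 0.0895), a tested difference of 1.04 (95% interval 0.69 to 1.39). In SKNO-1 2 DNA replication genes fell and 1 rose, and no mitosis gene was called. Median log2 changes of these lists there were -0.13 and -0.03, against -0.03 over all genes. No gene of either list differed between the lines by the direct test. That test called 2.28% and 0.822% of all genes, so such an absence says little about lists of 42 and 39 genes. Cell line, serum and GM-CSF in the medium cannot be told apart.

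**Figure D5:**
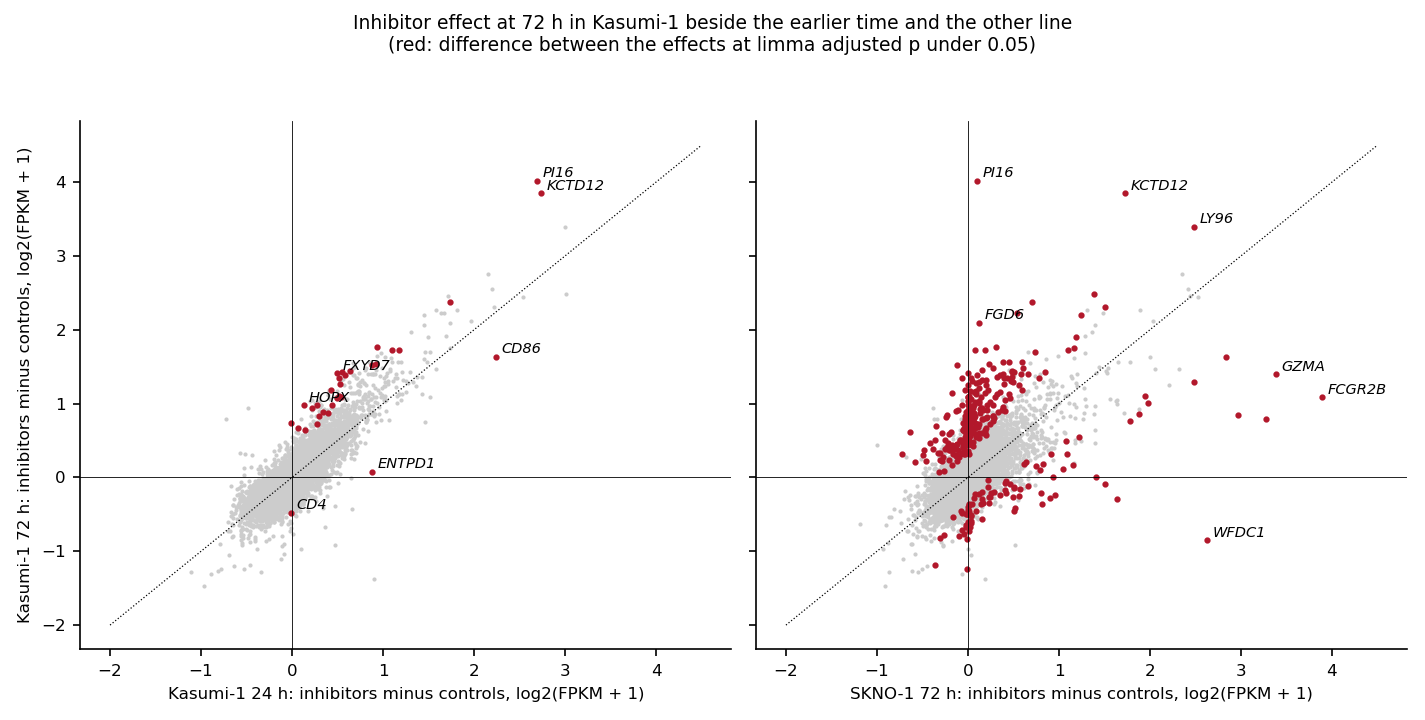
Log2 change of each tested gene, inhibitors against controls, in Kasumi-1 at 72 h (y axis) beside Kasumi-1 at 24 h (left) and SKNO-1 at 72 h (right). Points are genes, red where the effects differed at a limma adjusted p under 0.05, and the dotted line marks equal effect. PI16 stands at 4.02 in Kasumi-1 at 72 h, at 2.69 at 24 h and at 0.10 in SKNO-1.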

How the data were processed

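RNA sequencing values were used as deposited. The authors' table gives FPKM per Ensembl gene and library, made with TopHat 1.4.1 and Cufflinks on hg19, per the submitters' processing notes. The annotation release, the kind of library and any further scaling are not given in the sources used here. Each library was assigned by its GEO title, because the authors' own sample table gives the other cell line for the 72 h libraries. Depth per library is unknown, since the table holds no read counts. Locus positions come from the authors' table in hg19, with 1 added to the start, since 13379 of 19829 genes match GENCODE v29 lengths only if starts count from 0.

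The filter (1 FPKM or more in 2 or more of the 8 libraries) kept 11074 genes. The values log2(FPKM + 1) entered limma 3.58.1 (R 4.3.3) as 16 group means over all 32 libraries, an intensity trend, 16 residual degrees of freedom and Benjamini-Hochberg adjustment per contrast. Missing values were left out gene by gene. Inhibitors against controls weighs the 4 agents equally. The method was tested on simulated data. Alternatives were a pseudocount of 0.1, no filter, quantile or median-of-ratios scaling, a replicate block, fits on the 8 libraries alone, DMSO as the only control (added after seeing the data) and leaving out each library.

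Named genes are the 12 highest and 8 lowest changes without overlap, up to 4 called members per gene list, genes followed whatever their value and up to 6 per direction of each interaction. PLK1, SREBF2, INSIG1, ITGB2, HLA-DRA and SERPINB1 were named from their lists after their values were seen, and a few genes that the rule names are not reported here. The groups, gene lists and named genes were chosen with earlier results of these data known. Promoters are RefSeq windows of 300 bases, matched by Ensembl identifier and, where that failed, by symbol. Their starts were not checked against the hg19 loci, so a window need not lie at the start of the transcript measured. Figures used Python 3.11.15 with pandas 2.3.3, numpy 2.4.6 and matplotlib 3.10.9.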

Additional observations from a re-analysis of the deposited data

Results flagged for a closer look

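Between 72 h and 24 h in Kasumi-1, the inhibitor effect differed in 32 genes by the direct test of the difference (limma, Benjamini-Hochberg adjusted p under 0.05). The log2 effect was larger at 72 h by 1.33 in PI16, 1.11 in KCTD12, 0.914 in FXYD7, 0.889 in MARCKS, 0.85 in HOPX and 0.831 in BCAR3. The difference, 72 h minus 24 h, was -0.802 in ENTPD1, -0.611 in CD86 and -0.469 in CD4. With a pseudocount of 0.1 in place of 1, 0 genes were called more negative at 72 h.

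Between Kasumi-1 and SKNO-1 at 72 h, the effect differed in 343 genes by the same test. It was larger in Kasumi-1 by 3.92 in PI16, 2.12 in KCTD12, 1.97 in FGD6, 1.68 in CTSO, 1.67 in MPZL1 and 1.65 in RGS18. The difference, Kasumi-1 minus SKNO-1, was -3.48 in WFDC1, -2.81 in FCGR2B, -2.48 in TSPAN7, -2.12 in FCGR2C, -1.99 in GZMA and -1.92 in FAM105A. No group has enough libraries for a test of a single outlying library.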

How the results depend on the processing

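The 3085 genes called between inhibitors and controls became 2284 to 4262 over the alternatives other than leaving out a library, and 2043 to 2882 when 1 library was left out. With the replicate number as a block the count was 4262 for all inhibitors, 2570 for RN-1 against DMSO, 2462 for GSK690 against GSK690*, 3 for RN-1 against GSK690, 122 for 72 h minus 24 h and 837 for Kasumi-1 minus SKNO-1. The labels give numbers only, so samples of 1 number are not known to share a day, and deviations of same-numbered samples correlated at 0.038 to 0.502 across genes. The block also moved gene lists between inhibitors and controls: 29 of the interferon-stimulated genes rose in place of 19, and 29 of the mitosis genes fell in place of 17. Leaving out 1 library gave 622 to 1735 for RN-1, 396 to 1360 for GSK690, 0 to 179 for RN-1 against GSK690 and 16 to 30 for 72 h minus 24 h. RN-1 against GSK690 gave 0 genes with a pseudocount of 0.1 or a fit on the 8 libraries alone, and 5 with no filter. GSK690* against DMSO gave 1 gene with a pseudocount of 0.1 and 2 with no filter. The count of 32 for 72 h minus 24 h was 14 with a pseudocount of 0.1, 55 with no filter and 54 with quantile scaling, and the 343 between lines were 563 with no filter. The cause was not tested. Of 181 named genes fitted, 40 of the 175 called lost the call under at least 1 alternative and 0 changed sign. Where a lone library was left for an agent, its spread was taken from the other groups. Unknown depth and 2 libraries per agent limit what is said of genes near 1 FPKM.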

Other observations

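Several genes outside the lists also changed at least 2-fold, and those named here were chosen after their values were seen. LPAR6, a receptor for lysophosphatidic acid, was at 12 and 12.8 FPKM with DMSO, 17.7 and 18.4 with GSK690*, 70.9 and 75.2 with RN-1 and 69.8 and 78.9 with GSK690 (log2 change 2.22 ± 0.15, limma adjusted p = 3.52e-10). PFN2, an actin-binding profilin, was at 0.835 and 1 FPKM with DMSO, 1.01 and 0.894 with GSK690*, 7.64 and 7.74 with RN-1 and 8.14 and 7.89 with GSK690 and rose (log2 change 2.19 ± 0.16, limma adjusted p = 7.24e-10). P2RX7, an ATP-gated channel of macrophages, was at 2.52 and 3.76 FPKM with DMSO, 3.9 and 5.82 with GSK690*, 8.98 and 18 with RN-1 and 13.9 and 20.6 with GSK690, with replicate 2 above replicate 1 for every agent. ANPEP (CD13), a myeloid aminopeptidase, was at 1.23 and 2.69 FPKM with DMSO, 2 and 4.14 with GSK690*, 6.37 and 9.87 with RN-1 and 6.2 and 11.6 with GSK690, with the same order of replicates. VIM, the intermediate filament vimentin, rose from 0.49 ± 0.273 to 2.92 ± 0.387 FPKM and stayed low for a gene abundant in most leukocytes.

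The leukocyte membrane proteins EVI2A and EVI2B, encoded within an intron of NF1, rose from 41 ± 3.67 to 85.3 ± 2.7 FPKM and from 31.6 ± 3.09 to 75.1 ± 2.76 FPKM. CD53, a tetraspanin of leukocytes, rose from 76 ± 10.3 to 152 ± 3.26 FPKM. PROCR, the endothelial protein C receptor and a marker of some stem cells, rose from 25.8 ± 1.76 to 53.1 ± 7.69 FPKM. Among the genes that fell, RET, a receptor tyrosine kinase, was at 20.3 and 23.5 FPKM with DMSO, 16.6 and 19.4 with GSK690*, 7.95 and 8.38 with RN-1 and 7.74 and 8.52 with GSK690 (log2 change -1.19 ± 0.13, limma adjusted p = 7.93e-07), and SERPINA1, the protease inhibitor alpha-1-antitrypsin, was at 33.9 and 34.1 FPKM with DMSO, 27.9 and 26.8 with GSK690*, 18.5 and 13.5 with RN-1 and 14 and 12.3 with GSK690. In both, GSK690* libraries lay between the DMSO and the inhibitor libraries. The readthrough gene LY75-CD302 was at 13.1 and 10.1 FPKM with DMSO, 12.2 and 10.9 with GSK690*, 0.0902 and 2.69 with RN-1 and 9.99 and 11 with GSK690. It was low in the RN-1 libraries alone, and its fragments overlap those of LY75 and CD302.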
